A study of Mus musculus with 3 samples.

Results

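The death receptor and immune checkpoint genes described here are the 10 genes Fas, Tnfrsf10b, Tnfsf10, Casp8, Cflar, Ripk1, Cd40, Cd274, Pdcd1lg2 and Icam1. A region of the deposited H3K4me1 list was taken as belonging to a gene when it overlapped the gene or when its nearest edge lay within 20 kb of any of the gene's annotated transcription start sites (TSS). This gave 35 distinct regions of 65709 in the list, and none of them belonged to more than 1 of the 10 genes. A TSS was called covered when a region contained it, flanked when it was not covered but a region edge lay within 2 kb, and bare otherwise, and a gene took the best class of its TSS.

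H3K4me1, the monomethylation of lysine 4 of histone H3, was mapped by ChIP-seq, in which an antibody pulls down chromatin that carries the mark and the attached DNA is read. The only library with a file here came from islets, the endocrine cell clusters of the mouse pancreas, cultured for 4 days with TNFα at 0.16 ng/ml, IL-1β at 0.25 ng/ml and IFNγ at 1.6 ng/ml. The labels give the mice as CD1 aged 8 to 12 weeks, the methods name ICR mice of both sexes, and no transgene or mutant allele is named for them. DNA of separate ChIP experiments was pooled into this 1 library, so there is no replicate, no value has an error between samples and no difference was tested. The list holds positions with no read count, height or score, so the depth is unknown. A missing region cannot be told apart from one below the calling threshold, and neither untreated H3K4me1 regions nor the RNA-seq of either condition were analysed here, so nothing below is a change with cytokines. An islet preparation holds endocrine, endothelial, stromal and immune cells, and a region in the list does not say which of them carried the mark.

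Death receptors are surface proteins of the TNF receptor family that, once bound by their ligands, assemble a complex in which an initiator caspase is activated and a cell death program starts; inhibitors within the complex can turn the same signal toward survival. Checkpoint ligands on a tissue cell dampen T cells through inhibitory receptors, whereas adhesion molecules hold the T cell to its target. H3K4me1 lies over enhancers and on the shoulders of promoters that are active or poised, and the centre of a strongly active promoter often carries trimethylation in its place, so a start site lying between marked regions is a known arrangement.

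Of the 10 genes, 7 had a covered TSS (Fas, Tnfrsf10b, Tnfsf10, Casp8, Ripk1, Cd40 and Icam1), 3 were flanked (Cflar, Cd274 and Pdcd1lg2) and 0 were bare. Among all 22350 protein-coding genes on chromosomes 1 to 19 and X the same classes held 39.1%, 22.9% and 38.0%. All 10 genes had at least 1 region, as did 76.4% of protein-coding genes. The most upstream TSS was covered in 7 of the 10 genes and in 31.1% of protein-coding genes. Counting each distinct TSS, 14 of 30 were covered (46.7%, exact 95% binomial interval 28.3 to 65.7%, which covers counting error only and treats neighbouring TSS as independent), 6 were flanked and 10 were bare, beside 31.5% covered over all 70018 positions. Over all genes, those with more annotated start sites were more often covered. By number of TSS, 3 of the 5 members with 1 TSS were covered beside 22.9% of such genes, 3 of 3 with 2 to 4 TSS beside 44.0%, and 1 of 2 with 5 or more beside 63.1%.

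**Figure D1:**
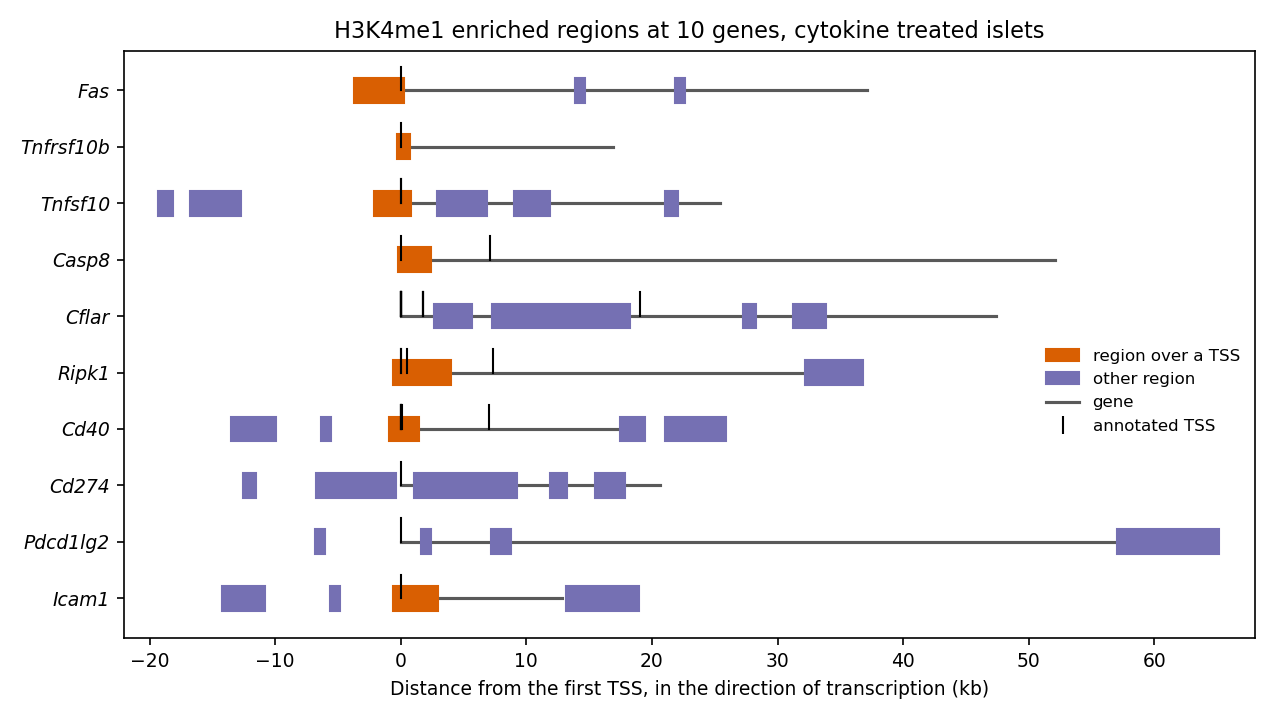
Regions at the 10 genes of the cytokine treated library, 1 row a gene, with distance from the most upstream TSS on the horizontal axis (kb, negative values upstream); boxes are regions (orange over a TSS of the gene, purple otherwise), grey lines the genes and upright ticks the annotated TSS. Orange boxes stand at 7 genes, whereas the ticks of Cflar, Cd274 and Pdcd1lg2 stand outside the boxes, with most of the Cflar ticks before its first region.

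The promoter sequences below are 4 in which the letters of a cytokine responsive motif were found, and they show where the region edges lie relative to those letters. They are the reference sequence of mm9, read 5′ to 3′ on the strand of the gene, from 250 bases before the most upstream TSS to 30 bases after it, except that the Cd274 sequence starts 94 bases before the TSS, to print no more of the first exon of the divergent gene 5033414D02Rik, which starts at 29441880 within the printed stretch and runs on upstream. Capitals mark the matched letters, which are those of a gamma-activated site (GAS, TTCNNNGAA) in Fas, those of an interferon-stimulated response element (ISRE, GAAANNGAA, read on the other strand) in Cflar and Cd274, and those of an NF-kB site (GGANNTTCC) followed by a GAS in Icam1.
Fas, chr19:34364899-34365178, plus strand: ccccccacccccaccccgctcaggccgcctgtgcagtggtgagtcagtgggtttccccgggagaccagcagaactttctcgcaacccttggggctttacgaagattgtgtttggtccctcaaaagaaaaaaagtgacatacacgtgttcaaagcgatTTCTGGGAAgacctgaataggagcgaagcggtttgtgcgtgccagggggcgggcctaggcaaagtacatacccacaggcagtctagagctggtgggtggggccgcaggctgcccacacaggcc
Cflar, chr1:58768102-58768381, plus strand: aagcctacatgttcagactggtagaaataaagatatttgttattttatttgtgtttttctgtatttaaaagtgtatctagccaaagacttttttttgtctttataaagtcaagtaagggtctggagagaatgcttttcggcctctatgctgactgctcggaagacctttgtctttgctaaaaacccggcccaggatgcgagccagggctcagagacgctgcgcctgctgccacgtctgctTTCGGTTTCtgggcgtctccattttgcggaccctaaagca
Cd274, chr19:29441851-29441974, plus strand: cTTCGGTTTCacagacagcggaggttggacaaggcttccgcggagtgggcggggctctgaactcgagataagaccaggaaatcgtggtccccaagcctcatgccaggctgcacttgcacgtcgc
Icam1, chr9:20820154-20820433, plus strand: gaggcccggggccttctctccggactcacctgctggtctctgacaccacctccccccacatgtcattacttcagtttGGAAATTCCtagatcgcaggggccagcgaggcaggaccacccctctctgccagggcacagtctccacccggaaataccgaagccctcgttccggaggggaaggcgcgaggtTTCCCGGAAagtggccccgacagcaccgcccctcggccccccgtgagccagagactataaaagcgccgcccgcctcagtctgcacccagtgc

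The first base of the match stood at position -93 from the TSS in Fas, at -10 in Cflar, at -93 in Cd274, and at -173 (NF-kB) and -62 (GAS) in Icam1. Cflar and Cd274 held the same 9 letters, TTCGGTTTC. In Fas and Icam1 the matched letters lay inside the region over the TSS. In Cd274 and Cflar they lay in the uncovered stretch, as the nearest regions ended 345 bp upstream of the Cd274 TSS and began 1056 bp downstream of it, and no region lay within 2 kb of the first Cflar TSS. The Cd274 match also lay within the first exon of 5033414D02Rik.

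Fas encodes the death receptor that binds Fas ligand. It is on chromosome 19 (34365149 to 34402260, plus strand) and its 1 TSS lay in a region of 4000 bp, from 34361401 to 34365400, that reached 3748 bp upstream and 251 bp downstream. Of the 7 regions over a first TSS this was the one lying most to the upstream side, ending just past the start of transcription. The other 2 regions were intronic and 800 bp wide, 13.9 and 21.9 kb into the gene. Together the 3 regions covered 5.6 kb, or 9.81% of the locus window, which is the gene and 20 kb around each TSS, and 60.5% of protein-coding genes had a lower covered share. The next region downstream began 131.6 kb after the last intronic one, a gap longer than 95.3% of those in the list.

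Tnfrsf10b, the mouse receptor for TRAIL that carries a death domain, had the sparsest locus of the 10 with 20 kb around each TSS, whereas with 50 kb Casp8 had the lowest share, 3.17% beside 6.4%. Its TSS at 70167279 on chromosome 14 was covered by 1 region of 1000 bp (70167001 to 70168000), reaching 278 bp upstream and 721 bp downstream. No other region lay in the gene or within 20 kb of the TSS, and the gaps to the next regions were 32.6 and 34.8 kb. The region covered 2.5% of the window, and 33.6% of protein-coding genes had a lower share.

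Tnfsf10, which encodes the ligand TRAIL, had 6 regions, the most of the 10 genes at 20 kb, and 84.7% of protein-coding genes had fewer. With 50 kb Cd40 had 13 and Tnfsf10 had 9, and with 10 kb Tnfsf10 had 4, as did other members. Both of its TSS, 33 bp apart from 27215950 on chromosome 3, lay in a region of 3000 bp (27213801 to 27216800). A pair of regions stood upstream, at -19.3 to -18.1 kb and at -16.7 to -12.8 kb, the latter 4000 bp wide. Within the gene, intronic regions of 4000 and 2800 bp followed at 2.85 and 9.05 kb, and a region of 1000 bp at 21.1 kb overlapped exon sequence outside the coding part. The regions covered 16.0 kb, 35.2% of the window and 34.1% of the gene itself, and 94.3% of protein-coding genes had a lower covered share of the window. The ligand and the receptor it binds thus both had a covered TSS, with 6 regions at Tnfsf10 and 1 at Tnfrsf10b.

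Casp8 encodes the initiator caspase of the death receptor complex, and Cflar encodes c-FLIP, the caspase-like protein that competes with it there. They lie next to each other on chromosome 1 on the same strand, Cflar from 58768352 to 58815728 and Casp8 from 58852218 to 58904347, and their patterns differed in kind. Casp8 had 1 region, of 2600 bp (58852001 to 58854600), which covered its first TSS and ran 217 bp upstream and 2382 bp downstream, into the gene. The second Casp8 TSS, 7128 bp further on, was bare, and the following gap of 151.6 kb was longer than 96.1% of those in the list. Casp8 had 3.6% of its window covered, a share above that of 38.9% of protein-coding genes.

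Cflar had 11 annotated TSS and 0 of them were covered. The first 7, within 52 bp of each other, were bare, with the nearest region 2597 to 2649 bp downstream and none upstream for 88.6 kb. A second group of 3 TSS was flanked by the same downstream region at 840 to 863 bp, and the last TSS lay 796 bp after the end of another. All 4 regions of Cflar lay inside the gene, and 1 of them (58775601 to 58786600), which overlapped coding exons, was 11000 bp wide, the widest of the 35 and wider than 98.3% of the list. They covered 17.6 kb, 26.1% of the window and 37.1% of the gene, and 88.1% of protein-coding genes had a lower covered share of the window. A single region between the genes, from 58818001 to 58818800, fell outside both sets, 30.6 kb from the nearest Cflar TSS and 33.4 kb from the nearest Casp8 TSS. Cflar thus had regions in its body with no TSS covered, and Casp8 had a region over its first TSS alone.

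Ripk1 encodes the kinase of the TNF receptor complex whose outputs are survival signalling, apoptosis or necroptosis. Its first 3 TSS on chromosome 13, from 34094232, lay in a region of 4600 bp (34093601 to 34098200), and the fourth, 7335 bp on, was bare. That region also covered 5 TSS of Serpinb6a, which runs in the opposite direction from its first TSS at 34094663, so it cannot be given to Ripk1 alone. The second Ripk1 region, also of 4600 bp, lay at the 3′ end and covered both TSS of the next gene, Bphl. Regions covered 9.92% of the Ripk1 window, a share above that of 60.8% of protein-coding genes.

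Cd40, a costimulatory receptor of the TNF receptor family bound by CD40 ligand on T cells, is on chromosome 2 (164881127 to 164898448). A region of 2400 bp (164880201 to 164882600) covered 5 of its 6 TSS, and the sixth, 7049 bp further on, was bare. The other 4 regions lay outside the gene, of which 2 were upstream, at -13.5 to -9.93 kb and -6.33 to -5.53 kb, and 2 were past the 3′ end, at 17.5 to 19.5 kb and 21.1 to 25.9 kb from the first TSS. The last of these, of 4800 bp, overlapped the neighbouring gene 1700025C18Rik, and the farthest upstream lay nearer to a TSS of Ncoa5 than to Cd40. Regions covered 28.9% of the window but 8.51% of the gene, the reverse of Cflar, where they all lay within it. The region of 4800 bp lay within 20 kb of the sixth Cd40 TSS alone, which has 0 coding transcripts. With TSS of coding transcripts the covered share of the window was 22.0%. The next region upstream of Cd40 was 20.1 kb from the TSS, just outside the 20 kb rule, and it lay over start sites of Ncoa5, while among regions admitted by distance from a TSS alone, and not by overlap with the gene, the outermost was that of Tnfsf10 ending at -18.1 kb.

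Cd274 and Pdcd1lg2 encode PD-L1 and PD-L2, the ligands of the inhibitory T cell receptor PD-1, and are neighbours on chromosome 19. Cd274 (29441945 to 29462585) had the largest covered share of the 10 in these windows, 47.7% of its window and 58.1% of the gene, from 5 regions with 19.4 kb, and 98.1% of protein-coding genes had a lower share of the window. Its TSS was not covered but stood in a gap of 1400 bp, with a region of 6400 bp (29435201 to 29441600) ending 345 bp upstream and one of 8200 bp (29443001 to 29451200) beginning 1056 bp downstream. The upstream region lies within 5033414D02Rik, a gene of the opposite strand that starts at 29441880, and covers 6 of the 9 TSS of that gene. The remaining Cd274 regions were 1 upstream of 1000 bp and 2 downstream within the gene, of 1400 and 2400 bp, both over coding exons. The region of 1000 bp also lay within 5033414D02Rik and nearer to a TSS of that gene. The covered share of the window thus cannot be given to Cd274 alone.

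Pdcd1lg2 (29485409 to 29545647) had its TSS flanked on the downstream side only, by a region of 800 bp that began 1592 bp into the gene, and the nearest region upstream ended 6009 bp away. Its widest region, of 8200 bp (29542401 to 29550600), lay over the 3′ end of the gene, on exon sequence outside the coding part, 57.0 to 65.2 kb from the TSS. Its 4 regions covered 8.03% of the window, a share above that of 55.4% of protein-coding genes, beside 47.7% at Cd274. A gap of 18.8 kb, longer than 64.1% of those in the list, separated the last region of Cd274 from the first of Pdcd1lg2. The higher share at Cd274 also held with 10 kb around the TSS (60.1% beside 9.18%). It did not hold with 50 kb, where Cd274 stood at 21.8% and Pdcd1lg2 at 22.4%.

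Icam1 encodes the adhesion molecule bound by the integrin LFA-1 of leukocytes. Its TSS at 20820404 on chromosome 9 lay in a region of 3600 bp (20819801 to 20823400) that reached 603 bp upstream and 2996 bp downstream, over coding sequence. Of its other 3 regions, that at -14.2 to -10.8 kb covered the TSS of Mrpl4, that at -5.6 to -4.8 kb overlapped no annotated gene, and that at 13.2 to 19 kb, of 5800 bp, covered the TSS of both Icam4 and Icam5. Regions covered 34.0% of the window, and 93.7% of protein-coding genes had a lower share, with the reservation that 2 of the 4 regions also covered start sites of neighbours. With 10 kb around the TSS Icam1 had 2 regions and a share of 19.3%, and with 50 kb a share of 14.8%.

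**Figure D2:**
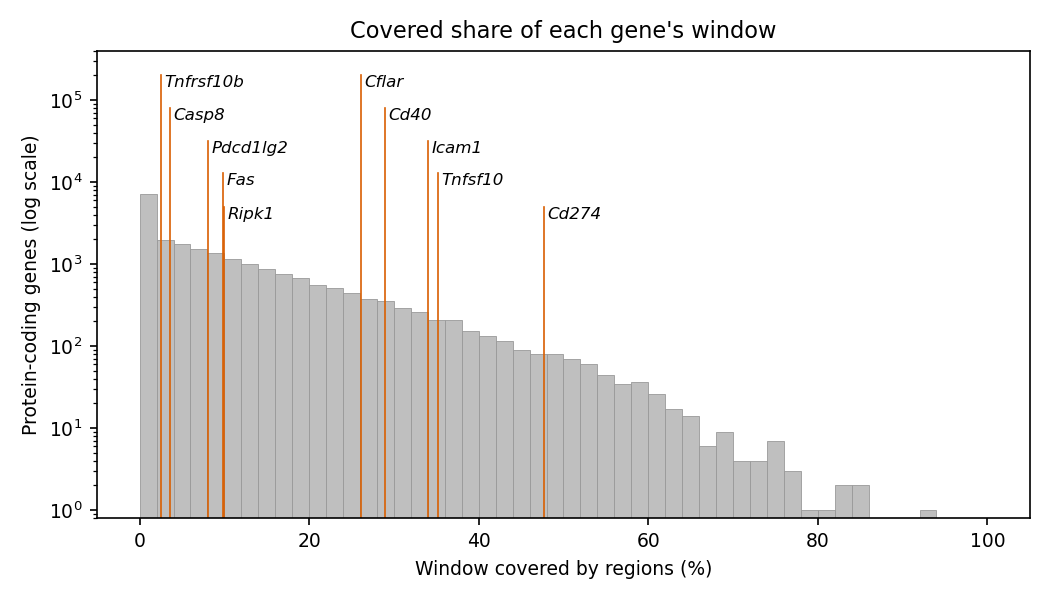
Number of protein-coding genes (vertical axis, log scale) by the percentage of the locus window covered by regions (horizontal axis, bins of 2 percentage points); orange lines give the 10 genes. With 20 kb around each TSS, 5 genes lie from 2.5% (Tnfrsf10b) to 9.92% (Ripk1) and 5 from 26.1% (Cflar) to 47.7% (Cd274).

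Over the 10 genes the covered share had a median of 18% (quartiles 8.48 and 32.7%), beside 6.5% (quartiles 0.713 and 16.1%) over protein-coding genes. In these windows no member lay between 9.92 and 26.1%, but the gap depended on the TSS and the distance used. Cd40 stood at 22% with TSS of coding transcripts or the most upstream TSS only, and with 10 kb around each TSS Fas stood at 11.9%, Cd40 at 12%, Ripk1 at 12.2% and Icam1 at 19.3%. With 50 kb 6 genes fell in it, namely Icam1 at 14.8%, Cflar at 15.5%, Ripk1 at 20.4%, Cd274 at 21.8%, Pdcd1lg2 at 22.4% and Tnfsf10 at 23.6%, Cd40 was the highest at 44.4%, and Icam1 and Cflar stood below Ripk1 and Pdcd1lg2. The number of regions per gene had a median of 4 (range 1 to 6), beside 2 (quartiles 1 and 4). With 20 kb, the upper group held Cflar, Cd40, Icam1, Tnfsf10 and Cd274, and the lower group held Tnfrsf10b, Casp8, Pdcd1lg2, Fas and Ripk1, so the death receptor pathway and the checkpoint and costimulation genes both had members on each side. Cd274 and Cflar had no covered TSS and stood in the upper group, whereas Tnfrsf10b and Casp8 had a covered TSS and the lowest shares. The plot of covered share shows these values against all genes.

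The 35 regions were 800 to 11000 bp wide with a median of 2600 bp (quartiles 1000 and 4000), beside 1400 bp (quartiles 800 and 2800) for the 50700 regions that belonged to any protein-coding gene by the same rule and 1200 bp for the whole list. Of them, 7 lay over a TSS of their gene (20%, beside 13.6% of the 72042 pairs of region and protein-coding gene), 16 elsewhere in the gene (45.7%, beside 48.7%), 9 upstream (25.7%, beside 24.9%) and 3 downstream (8.57%, beside 12.7%). Position relative to the gene was thus near the background, whereas width was above it. Where the first TSS was covered, the region over it had a median width of 3000 bp, beside 2600 bp over all such genes, and reached a median of 631 bp upstream and 1473 bp downstream, beside 811 and 1480 bp. It reached further downstream than upstream in 5 of the 7 genes, the exceptions being Fas and Tnfsf10, and in 69.5% of all genes whose first TSS was covered.

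**Figure D3:**
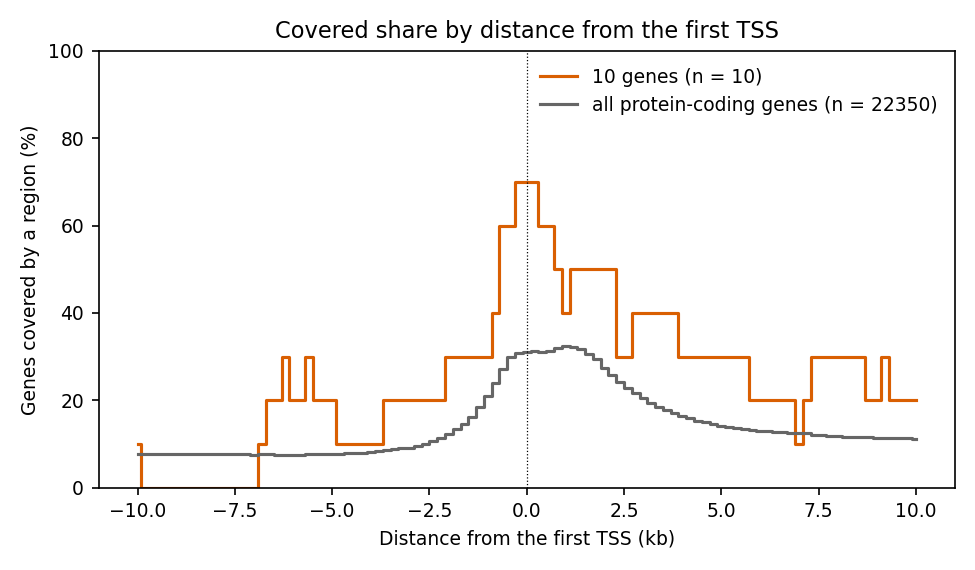
Percentage of genes covered by a region (vertical axis) in steps of 200 bp from 10 kb upstream to 10 kb downstream of the most upstream TSS (horizontal axis, kb), for the 10 genes (orange) and all 22350 protein-coding genes (grey); a step of the orange line is 1 gene. The orange line peaks at 7 of 10 genes at the TSS, where the grey line is at 31.1%.

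In the profile of coverage by distance, 7 of the 10 genes were covered at the first TSS, 4 at 1.0 kb downstream and 5 from 1.2 to 2.2 kb, while all protein-coding genes stood at 31.1% at the TSS and at 32.5%, their maximum, at 1.0 kb. Thus the mark was most frequent on the start itself in the 10 genes and slightly past it over all genes, with 1 gene making a step of 10 percentage points in the former. Upstream, 3 of the 10 were covered at 2.0 kb (12.4% of all genes) and 2 at 5.0 kb (7.75%).

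The CpG content of the start sites was then compared, since many promoters lie in CpG islands. It was given as the ratio of observed to expected CpG within 500 bp of the most upstream TSS, computed from mm9. Its median was 0.679 for protein-coding genes with a covered first TSS, 0.819 for those flanked on both sides and 0.214 for those that were bare. Ripk1 (0.888) and Tnfrsf10b (0.687) lay above the covered median, and Casp8 (0.562), Icam1 (0.495), Fas (0.429), Cd40 (0.356) and Tnfsf10 (0.219) below it. Covered start sites of these genes thus included one, at Tnfsf10, with as few CpGs as a typical bare gene. The first Cflar TSS was the opposite case, bare at 0.712, a ratio more like that of the flanked and covered classes. Cd274, flanked on both sides, was at 0.555, and Pdcd1lg2, flanked downstream, at 0.17, beside a median of 0.712 for its class. Among later TSS that were bare, those of Casp8 (0.273), Ripk1 (0.145) and Cd40 (0.292) had low ratios, whereas the 6 of Cflar next to its first TSS had ratios of 0.694 to 0.714.

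**Figure D4:**
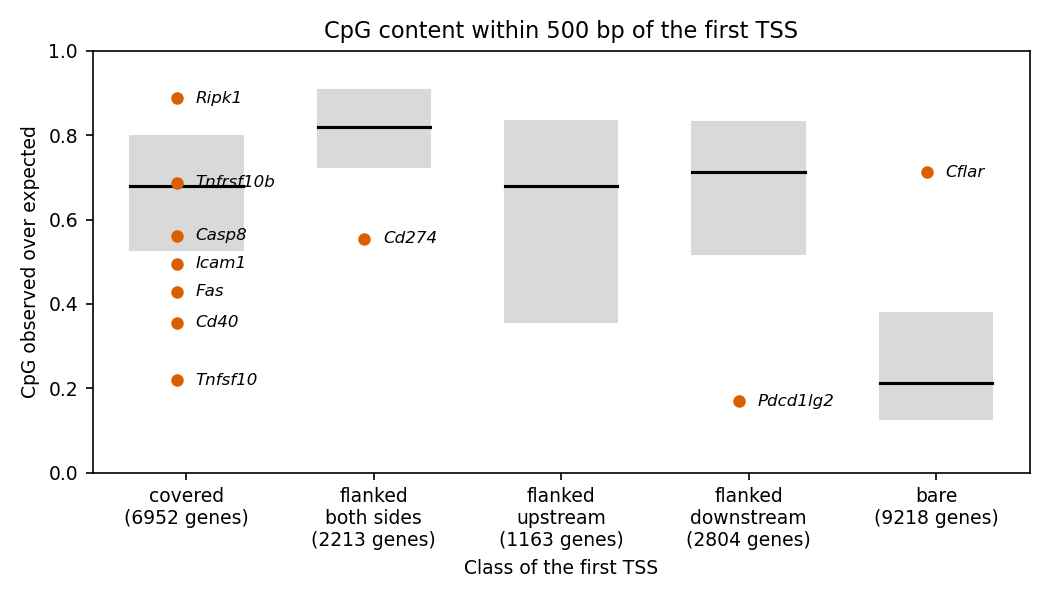
Ratio of observed to expected CpG within 500 bp of the most upstream TSS (vertical axis) by the class of that TSS (horizontal axis, with the number of protein-coding genes); black lines are medians, grey boxes quartiles, and orange points the 10 genes. Of the covered genes Ripk1 stands above the quartiles (0.528 and 0.798), Tnfrsf10b and Casp8 within them, and Icam1, Fas, Cd40 and Tnfsf10 below, while Cd274 and Pdcd1lg2 stand below those of their classes and Cflar above those of the bare class.

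Motif letters were counted on both strands, at distinct start positions, and a base could belong to matches of more than 1 motif; such matches describe the sequence and are not binding sites. In the promoters from 250 bases before to 50 after the first TSS, NF-kB letters were found in 2 of the 10 genes (Icam1 and Cd40) and in 4.41% of 22350 promoters, ISRE letters in 2 (Cflar and Cd274) and in 8.93%, and GAS letters in 2 (Fas and Icam1) and in 7.94%. The promoters of Tnfrsf10b, Tnfsf10, Casp8, Ripk1 and Pdcd1lg2 held none of the 3 in this window. In the 110.0 kb of the 35 regions there were 76 ISRE matches (0.691 per kb), beside 0.373 per kb over all regions and 0.498 per kb in the parts of the same windows outside the regions. Of these 76, 14 lay in a single upstream region of Tnfsf10 (27199201 to 27203200), and without it the value was 0.585 per kb, a setting added after the data were seen. NF-kB letters had 17 matches (0.155 per kb, beside 0.109 over all regions and 0.113 outside) and GAS letters 41 (0.373, beside 0.332 and 0.376). GC content, which moves with such counts, was 46.8% in the 35 regions, 46.6% over all regions and 43.7% outside.

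The genes around the 10 in their pathways were described from lists that leave the 10 out. Among 12 other death ligands and receptors, 4 were covered, 3 flanked and 5 bare, beside 39.1%, 22.9% and 38.0% of all protein-coding genes. With a flank of 1 kb 1 was flanked and 7 bare, beside 17.3% and 43.6% of all genes. With a flank of 5 kb 5 were flanked and 3 bare, beside 27.3% and 33.5%. The TNF receptor genes Tnfrsf1a and Tnfrsf1b were covered, the former at 5 of 7 TSS, as were Tnfsf12 and Tnfrsf12a, which encode the ligand TWEAK and its receptor. Fasl, the ligand of Fas, was bare, with its nearest region 2016 bp away, just outside the 2 kb limit. The ligand of the covered receptor Fas was thus not itself marked within that limit, unlike TRAIL and its receptor.

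Of 17 other genes of the signalling complex downstream of these receptors, 10 were covered, 6 flanked and 1 bare, beside 39.1%, 22.9% and 38.0% of all protein-coding genes. Their median was 3 regions and 23.6% of the window covered, beside 2 regions and 6.5% over all genes. However, 10 of the 17 had 5 or more TSS, a class covered in 63.1% of all genes. With the most upstream TSS only 7 were covered, 8 flanked and 2 bare, beside 31.1%, 27.7% and 41.2% of all genes. Birc3, which encodes the ubiquitin ligase cIAP2, was covered at 8 of 8 TSS. Ripk3, the necroptosis kinase that binds Ripk1, was covered, with 3 regions over 13.0% of its window, and Fadd, the adaptor between Fas and Casp8, was flanked at 233 bp. Traf1 was the bare gene, with no region within 20 kb and the nearest one at 27.1 kb. In 13 caspases and genes of the mitochondrial arm, 5 were covered, 3 flanked and 5 bare, close to those shares of all genes. Casp2 and Casp9 were among those covered, and Apaf1 and Casp12 had no region.

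Of 16 other checkpoint ligands and costimulators, 6 were covered, 4 flanked and 6 bare, close to the 39.1%, 22.9% and 38.0% of all protein-coding genes. Their median was 3 regions and 8.48% of the window, beside 2 regions and 6.5% over all genes. The covered ones included Cd200 (1 of 11 TSS), Cd276 (1 of 2), Cd47 (1 of 3) and Icosl (1 of 1). Cd80 and Cd86, the costimulatory ligands of antigen-presenting cells, were bare with nearest regions at 5213 and 5338 bp. With the most upstream TSS only 4 of the 16 were covered, 5 flanked and 7 bare, beside 31.1%, 27.7% and 41.2% of all genes. Of 11 other adhesion molecules, 4 were covered (Icam4, Icam5, Jam2 and Vcam1), 4 flanked and 3 bare. Icam4 and Icam5 owe the covered class to the region counted at Icam1. With regions of at least 1000 bp 5 were bare and with a flank of 5 kb 1, beside 46.6% and 33.5% of all genes. The 16 lymphocyte partners, most of them T cell receptors of these molecules, were covered in 2 (Cd27 and Tnfrsf9), flanked in 3 and bare in 11. With TSS of coding transcripts or the most upstream TSS only 1 was covered, beside 36.2% and 31.1% of all genes. Pdcd1, the PD-1 gene, was bare at 4930 bp, Cd40lg had its nearest region at 157 kb, and Itgal, a subunit of the integrin that binds Icam1, was flanked at 432 bp.

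**Figure D5:**
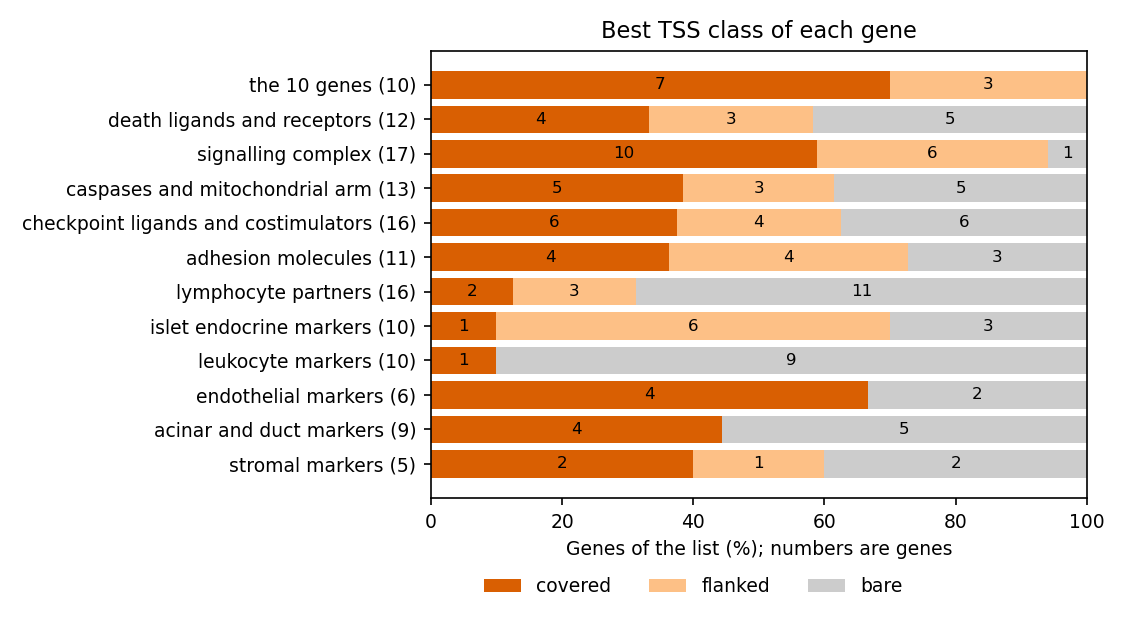
Percentage of the genes of each list (horizontal axis) whose best TSS class was covered, flanked or bare, with the number of genes printed in the bars and the size of the list in parentheses. The 10 genes and the signalling complex hold the smallest shares of bare genes, 0 of 10 and 1 of 17, while leukocyte markers are bare in 9 of 10 and lymphocyte partners in 11 of 16.

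Cell type markers were read in the same way. Of 10 leukocyte markers 9 were bare, and Cd3e, Itgam, Emr1, Itgax and Lyz2 had no region, the exception being Cd68, which was covered. Of 10 islet endocrine markers 1 was covered (Ins2, at 7 of 8 TSS), 6 flanked and 3 bare, beside 39.1%, 22.9% and 38.0% of all genes, with a median of 25.3% of the window. With regions of at least 1000 bp 4 were flanked and 5 bare, beside 17.6% and 46.6% of all genes. With the most upstream TSS only 0 were covered, beside 31.1% of all genes. Endothelial markers were covered in 4 of 6, but in 1 with regions of at least 1000 bp, beside 35.7% of all genes with that setting. Acinar and duct markers were covered in 4 of 9, which were the duct markers Krt19, Krt7, Cftr and Muc1, while the 5 acinar markers were bare. Stromal markers were covered in 2 of 5, beside 39.1% of all genes. With TSS of coding transcripts or the most upstream TSS only 1 was covered, beside 36.2% and 31.1% of all genes. The part of each cell type in the regions at the 10 genes was not tested.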

How the data were processed

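The deposited file of the cytokine treated H3K4me1 library holds 65709 region positions and no other value. Per the labels and methods, the authors aligned the reads with Bowtie2 (2.2.1, from the submitters' processing notes) to mm9, and enriched regions were those of ChromHMM. The methods also remove loci with low read density after joining both libraries, and whether the list precedes that step is not given in the sources used here. Starts were shifted to count from 1, and edges fall on a 200 bp grid. Genes and TSS came from GENCODE M1 on mm9 (22350 protein-coding genes, chromosomes 1 to 19 and X), and each region was given to genes within 20 kb. Ratios of CpG, GC content and motif letters were computed from the same build. The RNA-seq of both conditions was not analysed here.

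The 10 genes, the pathway lists and the motifs were chosen with earlier results of these data known. Named from a list were up to 4 genes that were bare where most were covered or covered where most were bare, in alphabetical order, and always Fasl, Pdcd1, Cd40lg, Itgal, Fadd and Ripk3; the other listed genes were named after their values were seen. The alternatives were other widths, merging, distances, flanks and sets of TSS. The classes were right for all 2000 genes of simulated data. Each of those had a single TSS and lay far from its neighbours, so the choice among several TSS was not tried. Python 3.11.15, pandas 2.3.3, numpy 2.4.6, scipy 1.17.1 and matplotlib 3.10.9 were used.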

Additional observations from a re-analysis of the deposited data

How the results depend on the processing

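With 1 library there was no replicate to leave out and no error between samples, the depth behind the list is unknown, and no call was tested. No paired analysis was possible because only 1 H3K4me1 library was analysed. The 7 covered genes kept that class when regions under 400 or 1000 bp were dropped, when regions up to 1000 bp apart were merged, and when only coding transcripts or only the most upstream TSS were used. A count, length, median covered share or rate of motif matches was taken as unmoved within 1.5 times the reported value. A percentage of TSS or genes was taken as unmoved within its exact binomial interval. This held for 45 of 54 values of the 10 main results, 132 of 150 of single genes and 189 of 209 of the lists. Covered length moved at Cd40 (13.6 kb) to 3.274 kb with 10 kb, 47.576 kb with 50 kb and 8.8 kb with coding or most upstream TSS, at Icam1 (13.6 kb) to 4.4 kb with 10 kb, and with 50 kb to 21.936 kb at Ripk1, 24.639 kb at Pdcd1lg2 and 6.4 kb at Tnfrsf10b.

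The 35 distinct regions became 60, and the median of 4 regions per gene 6.5, with a distance of 50 kb, and that median was 2.5 with regions of at least 1000 bp. The 0 bare genes became 1 with regions of at least 1000 bp (Pdcd1lg2), with a flank of 1 kb (Pdcd1lg2), and with the most upstream TSS alone (Cflar). That last setting left 7 covered TSS, 70.0% of the 10, in place of 14, or 46.7% of 30. Over all protein-coding genes the most upstream TSS was covered in 31.1%, in place of 31.5% of all TSS positions. A wider distance can only add regions, and a larger minimum width can only remove them. On chromosomes 1 to 19 without X, a setting added after the data were seen, 40.6% of protein-coding genes had a covered TSS in place of 39.1%.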
